A study of Mus musculus with 5 samples.

Results

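The cells described here are mammary fibroblasts chosen by the sum of their transcripts of Spon1, Tnc and Crabp1. Most of them did not hold all 3 transcripts. A barcode was called a fibroblast when Col1a1, Col1a2, Col3a1 and Dcn together made at least 50 of each 10000 unique molecular identifiers (UMIs, the tags that count single RNA molecules), when Epcam and Krt18 together stayed below 5 of each 10000, when it held 0 UMIs of the leukocyte gene Ptprc, and when at most 10% of its UMIs came from mitochondrial genes. A fibroblast was taken as a member when its raw UMIs of Spon1, Tnc and Crabp1 summed to at least 3 and to at least 2 times each of 3 other sums, Pi16 with Anxa3 and Efhd1, Col15a1 with Smoc2 and Vtn, and Inmt with Fgl2 and Gdf10. The rule kept 176 of 6276 fibroblast barcodes, from 14344 barcodes in all. Mirrored rules gave a Pi16 class of 3526 cells, a Col15a1 class of 258 cells and an Inmt class of 1120 cells, and 1196 fibroblasts belonged to no class.

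The study profiled dissociated mammary glands of 30-week-old BALB/cj mice by droplet single-cell RNA sequencing of transcript 3' ends. All mice had been ovariectomized at 9 weeks of age as a model of menopause, and treatment ran for 7 days from 20 weeks after surgery. Each of the 5 groups had 1 library: OVX, vehicle alone; OVX_E2, 17β-estradiol at 1 µg per animal daily; OVX_E2_PBDE, the same with polybrominated diphenyl ethers in the food; OVX_E2_P4, estradiol with progesterone at 0.1 mg per animal; and OVX_E2_P4_PBDE, all 3 agents. The PBDE food held BDE-47 at 7.1, BDE-100 at 0.4 and BDE-153 at 0.9 mg/kg, the other groups ate matched food with DMSO, and DMSO was the injected vehicle. Glands were taken whole after the lymph node was removed, with no cell sorting, and the number of mice behind each library was not given in the sources used here. With 1 library a group no group had a replicate, and no test between treatments was run. Intervals on single libraries covered counting error only. In the names of the deposited matrices the 2 PBDE libraries carried consecutive library numbers apart from the consecutive numbers of the other 3. No source used here says what these numbers stand for, and PBDE and any difference that goes with them cannot be told apart.

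Fibroblasts build the collagen and elastic matrix around mammary ducts and in the fat pad, and they pass growth factor, Wnt and retinoid signals to the epithelium. Spon1 encodes the secreted matrix protein F-spondin. Tnc encodes tenascin C, a matrix glycoprotein that gathers around growing ducts. Crabp1 encodes a cytosolic carrier of retinoic acid and marks dermal and other embryonic mesenchyme. Mfap4 encodes a microfibril-associated glycoprotein, and Lrrc15 a leucine-rich repeat membrane protein found on activated and tumour-associated fibroblasts.

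Members made a small share of each library, and a larger share of the fibroblasts after hormone than in OVX. They numbered 28 of 2462 fibroblasts in OVX, 1.14% (exact Clopper-Pearson 95% interval 0.757 to 1.64). They numbered 24 of 799 in OVX_E2, 3.00% (1.93 to 4.44), and 68 of 1796 in OVX_E2_PBDE, 3.79% (2.95 to 4.78). The share was 30 of 554 in OVX_E2_P4, 5.42% (3.68 to 7.64), and 26 of 665 in OVX_E2_P4_PBDE, 3.91% (2.57 to 5.68). OVX was lowest and its interval met none of the other 4, which all overlapped one another. The interval of OVX overlapped that of OVX_E2 when the rule was applied after thinning to 3000 UMIs (0.824 to 1.74% and 1.44 to 3.69%), with 3 times each other sum (0.434 to 1.15% and 0.778 to 2.61%), and with Tnc or Crabp1 left out of the sum. After thinning and with 3 times each other sum it also overlapped that of OVX_E2_P4_PBDE (1.496 to 4.06% and 0.723 to 2.75%). With Spon1 left out of the sum the interval of OVX, 0.223 to 0.798%, overlapped those of all 4 treated libraries. Of all barcodes, the members were 0.901% of 3109, 1.07% of 2233, 1.92% of 3536, 0.966% of 3107 and 1.10% of 2359 in the same order of libraries. Over this denominator the interval of OVX, 0.599 to 1.30%, met those of OVX_E2, OVX_E2_P4 and OVX_E2_P4_PBDE and lay below that of OVX_E2_PBDE, 1.496 to 2.43%, which was highest. A share moves with every other cell type caught in the suspension.

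**Figure D1:**
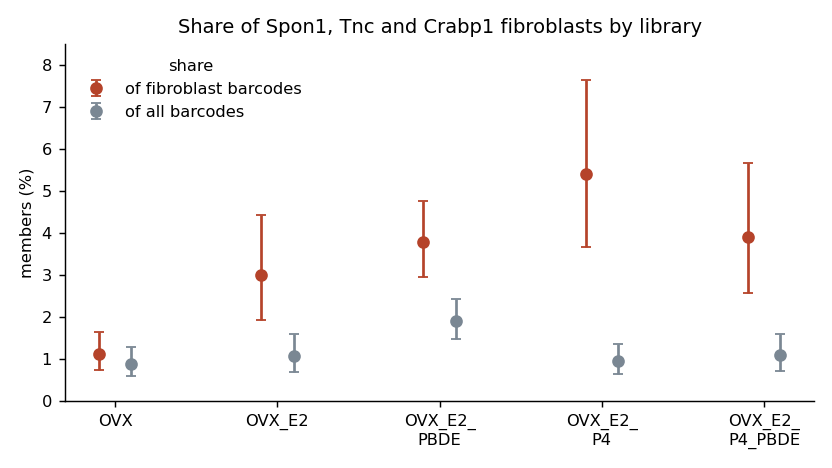
Members as a percentage of fibroblast barcodes (red) and of all barcodes (grey) in each of the 5 libraries, with exact 95% Clopper-Pearson intervals. Of fibroblasts, OVX is lowest at 1.14% and OVX_E2_P4 highest at 5.42%, whereas of all barcodes the shares run from 0.901% to 1.92%.

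The 5 libraries held 20293934, 29590862, 42012988, 32648416 and 19982067 UMIs in the group order above. The members' own sums were 125077, 170768, 451541, 181237 and 115367 UMIs, which are the totals behind each level in counts per 1000000 UMIs (CPM) given for them. A gene with 0 UMIs in the members could have stood at up to 24.0, 17.6, 6.64, 16.6 and 26.0 CPM, the level of 3 UMIs in each library. OVX_E2_PBDE therefore had the most precise values, and OVX_E2_P4_PBDE and OVX the least.

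The rule's own genes are given as a description, since they chose the cells. Spon1 (chr7:113765998-114043370, mm10) stood in the members at 1967, 960.4, 1929, 1705 and 1439 CPM in the order OVX, OVX_E2, OVX_E2_PBDE, OVX_E2_P4 and OVX_E2_P4_PBDE, which is kept for every list of 5 values. In the other fibroblasts it stood at 61.3, 184, 200.3, 224 and 177 CPM in the same order. The gene was thus also carried outside the class, at its lowest in OVX.

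Tnc (chr4:63959785-64047015) stood in the members at 320, 299, 148, 71.7 and 78.0 CPM. Elsewhere it stayed between 2.42 and 12.6 CPM. The members of the 2 progesterone libraries carried the least Tnc, on 13 and 9 UMIs, and the intervals of those libraries, 38.2 to 123 and 35.7 to 148 CPM, overlapped that of OVX_E2_PBDE.

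Crabp1 (chr9:54764748-54773110) stood at 12.3 to 30.8 CPM in other fibroblasts and at 1223, 668, 682, 1550 and 988 CPM in the members. OVX_E2_P4 was highest, with 112 of its 281 Crabp1 UMIs in 1 member. Without that cell OVX_E2_P4 stood at 994 CPM. In OVX_E2, 1 member held 43 of the 114 Crabp1 UMIs, and without it the level was 431 CPM.

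The members were not uniform in these genes. Of 176, 44 held UMIs of all 3 genes, 81 of Spon1 and Crabp1, 35 of Spon1 alone, 14 of Spon1 and Tnc, and 2, both in OVX_E2, of Tnc alone. The mixture differed between libraries: all 3 genes were held by 14 of 28, 2 of 24, 21 of 68, 3 of 30 and 4 of 26 members, and Crabp1 by 23, 12, 52, 21 and 17 of them. Spon1 was detected in 174 members, Crabp1 in 125 and Tnc in 60. Mfap4, which the rule did not use, was detected in 99 of the 125 members with Crabp1 and in 33 of the 51 without. In a member the sum of the 3 genes had a median of 16, 10.5, 17, 15 and 9.5 UMIs by library.

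Near the threshold, 4 members held exactly 3 UMIs of the sum and 9 held 3 or 4, while 3 fibroblasts outside held 2 UMIs and met the ratio. A further 694 fibroblasts held 3 or more UMIs but failed the ratio, of which 243 belonged to the Pi16 class and 326 to no class. In 168 of the 694 the sum of Spon1, Tnc and Crabp1 was still the highest of the 4 or tied with it. In the rest another sum was higher, and 3644 fibroblasts held none of the 3 transcripts.

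The start regions of Crabp1 and Lrrc15 are shown because Crabp1 is a gene of the rule and Lrrc15 a marker outside it, which gave 0 UMIs in the members of OVX and was seen in those of the 4 treated libraries. Each runs from 250 bases before to 50 bases after the annotated start, 5′ to 3′ on the strand of the gene, as RefSeq gives them on GRCm38.p6. Capitals mark GGGCGG on either strand, the core that Sp family factors bind, and the AP-1 motif TGANTCA, which dimers of Fos and Jun bind and which reads alike on both strands.
Crabp1, chr9:54764498-54764797, plus strand: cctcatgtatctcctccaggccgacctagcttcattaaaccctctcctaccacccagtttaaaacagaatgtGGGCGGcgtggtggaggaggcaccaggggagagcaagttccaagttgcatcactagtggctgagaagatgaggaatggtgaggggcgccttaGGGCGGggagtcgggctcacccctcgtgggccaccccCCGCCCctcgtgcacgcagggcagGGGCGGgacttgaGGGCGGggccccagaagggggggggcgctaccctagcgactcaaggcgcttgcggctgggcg
Lrrc15, chr16:30283205-30283504, minus strand: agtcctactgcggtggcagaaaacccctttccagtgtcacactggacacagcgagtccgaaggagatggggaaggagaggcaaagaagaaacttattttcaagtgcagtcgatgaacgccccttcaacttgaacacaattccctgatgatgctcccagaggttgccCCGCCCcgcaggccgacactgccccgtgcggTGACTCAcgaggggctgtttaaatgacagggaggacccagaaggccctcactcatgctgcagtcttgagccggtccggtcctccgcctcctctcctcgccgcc

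The Crabp1 window had a GC content of 65.0% and held GGGCGG 5 times over both strands. The Lrrc15 window had a GC content of 58.7%, with 1 match to GGGCGG and 1 to the AP-1 motif. Among 32851 RefSeq windows of this length, 35.7% held GGGCGG and 7.81% held the AP-1 motif. Windows on chr18, where Fbn2 lies, were left out of these and of the counts below. GGTCA, the arm of the palindrome bound by the estrogen receptor, was found in neither window and in 40.5% of all, and the whole palindrome, with 3 free bases between its arms, was in neither and in 0.07% of all. The TATA box letters TATAA were in neither window and in 24.9% of all. Each motif was searched on both strands. Of 25 genes looked for, 16 had a window, with 22 windows between them at a median GC content of 61.3% against 52.7% over all windows. These matches are letters in a window and show no binding.

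Both markers that lay outside the rule were higher in the members. Mfap4 (chr11:61485431-61488900) stood at 808, 1435, 1535, 1782 and 936 CPM. The other fibroblasts held 23.5, 185, 143, 196 and 85.9 CPM. Members lay above the other fibroblasts in all 5 libraries, with a log2 fold change of 3.43 (SE 0.20) in a fit across all genes with library as a block.

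Lrrc15 (chr16:30269302-30283256) was not seen in the members of OVX, 0 UMIs in 28 cells, which allows up to 24.0 CPM and, by a limit of 3 counts, up to 10.7% of cells with a UMI, a limit on detection and not on cells that express the gene. It stood at 141, 137, 160 and 86.7 CPM in the members of the 4 treated libraries. The other fibroblasts held 0.990, 21.7, 17.9, 39.8 and 9.32 CPM. Lrrc15 thus stood higher in members than in other fibroblasts in the 4 hormone-treated libraries, and in OVX members it could not be told from 0 at this depth. The fit over all 5 libraries, OVX included, gave a log2 fold change of 2.50 (SE 0.24). The gene was not confined to the class, with 125 UMIs in members and 515 in the far larger pool of other fibroblasts.

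**Figure D2:**
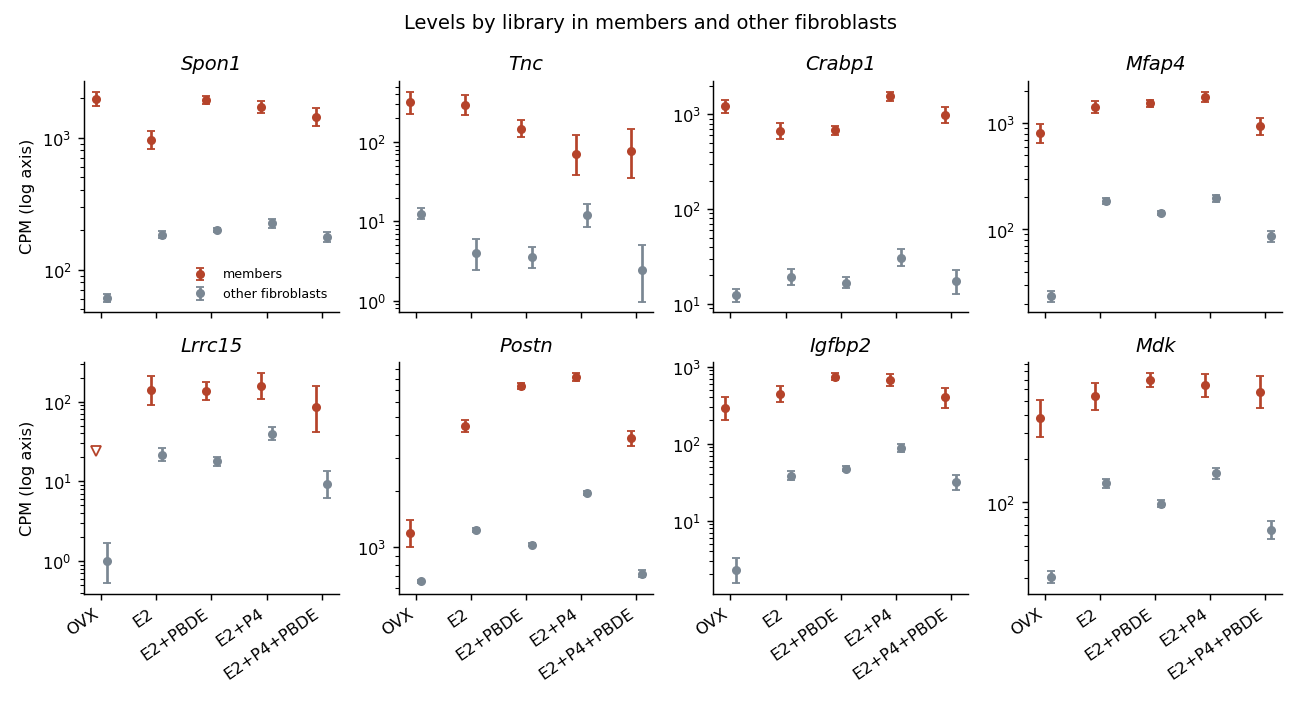
CPM (log axis) of 8 genes in the members (red) and in all other fibroblasts (grey) of each library, with exact 95% Poisson intervals for counting error; the x axis names the agents given beside ovariectomy. The open triangle for Lrrc15 in OVX is the level of 3 UMIs, since 0 were seen; in every other panel position the members lie above the other fibroblasts, and the first 3 panels are genes of the rule.

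To compare cells at one depth, each was thinned to 3000 UMIs. Mfap4 was then detected in 67.9, 50, 75.0, 80.0 and 57.7% of members. Among other fibroblasts the shares were 4.48, 11.2, 11.3, 17.8 and 8.29%, and among endothelial-type barcodes, where the gene should be absent, 0, 4.76, 1.59, 3.85 and 7.69%. Before thinning 132 of 176 members, all libraries together, held an Mfap4 UMI. The share of members with the gene was far above that background in every library.

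Thinned alike, Lrrc15 was detected in 0, 29.2, 27.9, 43.3 and 26.9% of members, against 0.370, 5.29, 3.53, 8.21 and 2.19% of other fibroblasts and 0, 0, 0, 3.85 and 1.92% of endothelial-type barcodes. Before thinning it was seen in 10 of 24, 31 of 68, 17 of 30 and 8 of 26 members of the 4 treated libraries. Median depths before thinning ran from 4083 to 6505.5 UMIs in members and from 5154.5 to 9194 UMIs in endothelial-type barcodes. In the 4 treated libraries these shares of members lay above those of endothelial-type barcodes.

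The members also lay together when the rule's genes were left out. Genes that travel with those of the rule stayed in. The neighbours were thus set in part by construction, and they are a description rather than independent support. Among the 20 nearest neighbours of a member within its own library, 33.4% were members in OVX, where members made 1.14% of fibroblasts. In the treated libraries the values were 21.5% against 3.00%, 45.2% against 3.79%, 27.7% against 5.42% and 34.2% against 3.91%. Around other fibroblasts members made 0.633 to 3.39% of neighbours. On average most neighbours of a member were still not members in any of the 5 libraries. Members outnumbered others among the 20 neighbours of 4 of 28, 0 of 24, 28 of 68, 0 of 30 and 6 of 26 members. Whether the rule cut through a region of cells that extends beyond it was not tested.

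Depth, mitochondrial share and markers of other cells were compared before the gene contrasts. Median UMIs of members were 4125, 6505.5, 6211, 5431.5 and 4083, and of other fibroblasts 5223, 6686, 7088, 5527.5 and 4269. The median mitochondrial share of members was 3.08, 2.78, 3.26, 3.73 and 2.69%, and of other fibroblasts 1.74, 1.29, 1.41, 1.97 and 1.22%. Members were shallower and richer in mitochondrial transcripts in all 5 libraries, and the part of this in the gene contrasts was not tested. Of barcodes, 82 were shared between libraries over the 10 pairs, and none was a member in both.

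Adipocyte markers were at or near 0 in the members. All 8 endothelial markers were at 0 in OVX, and the list summed to 5.86, 2.22, 60.7 and 8.67 CPM in the 4 treated libraries, on 1, 1, 11 and 1 UMIs. Egfl7 was the most abundant in OVX_E2_P4 and OVX_E2_P4_PBDE and was at 0 in the other 3 libraries. In other fibroblasts the list summed to 8.68, 26.3, 21.05, 12.6 and 26.9 CPM, so that members lay above them in OVX_E2_P4 alone. The 6 adipocyte markers were at 0 in 4 libraries and gave 2 UMIs in OVX_E2_PBDE, with Adipoq, Plin1, Cidec and Lep at 0 throughout. The 7 Schwann markers summed to 23.4 to 52.0 CPM, led by S100b, with Cdh19 at 0 in every library, against 31.8 to 49.6 CPM in other fibroblasts. The 8 pericyte markers summed to 5.86 to 82.8 CPM, led by Abcc9, against 42.2 to 50.2 CPM in other fibroblasts, with Rgs5 at 0 in 4 libraries. In OVX_E2_P4 the pericyte list stood at 82.8 CPM in members and 50.2 CPM in the others.

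Epithelial and immune markers were uneven between libraries. The 12 luminal markers, led by Krt8, summed to 128, 340, 368, 723 and 529 CPM in members and to 209, 440, 420, 788 and 665 CPM in other fibroblasts, so that members lay below the others throughout. The 8 basal markers summed to 472, 193, 73.1, 177 and 104 CPM, with Mylk the most abundant over all members and Oxtr at 0, and 1 OVX member held 53 of their UMIs. In other fibroblasts they summed to 49.5, 149, 33.9, 87.5 and 41.4 CPM, so that members lay above them in all 5 libraries. In OVX that 1 member held 53 of the 59 UMIs, so the excess there rested on 1 cell. The 6 mesothelial markers were represented by Krt19 alone. Of 7 tendon markers Scx and Chad were at 0, and Kera, a corneal and tendon proteoglycan, made 24.0 to 52.0 CPM. The tendon list summed to 24.0, 58.6, 62.01, 60.7 and 69.3 CPM in members. In other fibroblasts it summed to 5.48, 7.16, 6.655, 12.0 and 3.80 CPM, so that members lay above them in all 5 libraries.

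The 8 myeloid markers, led by Cd74, summed to 2175 CPM in OVX and to 29.3, 28.8, 254 and 104 CPM in the treated libraries, with Adgre1 at 0 throughout. In other fibroblasts the list summed to 131, 109.8, 57.0, 94.6 and 179 CPM, so that members lay above them in OVX and OVX_E2_P4 and below in the rest. In OVX, 1 member held 265 of these UMIs, among them 210 of the 216 Cd74 UMIs. In OVX_E2_P4, 1 member held 39 of the 46 UMIs of the list, so that its sum there rested mostly on 1 cell. The 6 lymphoid markers, led by Ccl5, summed to 56.0, 41.0, 15.5, 66.2 and 234 CPM, and 1 member of OVX_E2_P4_PBDE held 23 of their UMIs. In all, 6 of 176 members held 10 or more UMIs of another cell type's list, and the contrasts were run again without such barcodes, a choice made after seeing the data.

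Against all other fibroblasts the members were higher in most collagen chains and lower in most of the chemokine and complement genes tested. Of 8493 genes tested by edgeR's quasi-likelihood test with library as a block, 757 (8.91%) were higher and 1042 (12.3%) lower at an adjusted p under 0.05, of which 593 and 852 had the same direction in each of the 5 libraries. Both classes were gated on RNA counts of these same cells, so genes that travel with those of the rule were selected in part by construction, and the calls are a description rather than independent support. Without the 6 barcodes above and their like among other fibroblasts the counts were 768 and 1146. Among the fits with 1 library left out, the count of higher genes was lowest, at 432, without OVX_E2_PBDE, which gave 68 of the 176 members. With Spon1 left out of the sum 252 genes were higher.

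Among the 20 genes with the largest folds that held in each library, several were collagens and other matrix genes. Col25a1, a membrane collagen, stood at 64.0, 35.1, 62.01, 93.8 and 60.7 CPM in members against 0.761 to 4.21 CPM in other fibroblasts (log2 fold 4.67, SE 0.36). Col7a1, the anchoring fibril collagen that ties epithelial basement membrane to stroma, stood at 16.0, 170, 173, 199 and 208 CPM against 0.609 to 26.9 CPM (3.83, SE 0.25). The OVX value of Col7a1 rested on 2 UMIs and was the lowest of the 5. Fbn2, a microfibril fibrillin of growing tissue, was higher by 3.48, the basement membrane linker Egflam by 3.10, and the filament-forming matrilin Matn2 by 3.08 on the log2 scale.

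Genes of retinoid handling stood beside Crabp1. Stra6, the receptor that brings retinol into cells, was at 16.0, 64.4, 62.01, 82.8 and 95.4 CPM in members and at 0.152 to 9.72 CPM elsewhere (log2 fold 3.95, SE 0.36). Rarres1, a retinoic acid response gene, was higher by 3.39 on the log2 scale. Of 14 tested genes of the retinoid list 6 were higher and 3 lower, with a median log2 fold of 0.47 against −0.04 over all genes tested. Dhrs3, Aldh1a1 and Rbp4 were among the other higher genes, and the lower genes were the retinaldehyde dehydrogenase Aldh1a3 (−4.41), the retinoic acid receptor Rarg and Rarres2, so the list did not move one way.

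Several of the named genes encode secreted factors. Igfbp2, which binds insulin-like growth factors, stood at 288, 445, 742, 668 and 399 CPM in members and at 2.28, 38.3, 47.4, 87.8 and 31.4 CPM elsewhere (log2 fold 3.79, SE 0.30). Wnt4, the Wnt ligand best known in the gland as a progesterone-driven epithelial signal, was higher by 3.16, and Angpt2, the vessel-destabilising angiopoietin, by 3.53. The growth factor midkine, Mdk, was higher by 2.54 with 384 to 698 CPM in members and 30.8 to 159 CPM elsewhere. The gene a, which encodes agouti signalling protein, was higher by 3.69.

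Remaining members of these 20 were the transcription factor Tbx2 (3.73), the phospholipase Pla2g7 (3.50), the membrane protein Mmd (3.50), Mfap4, the water channel Aqp1 (3.37), the calcium channel Cacna1g (3.15), the thrombin receptor F2r (3.07), the matricellular gene Wisp1 (3.07) and the sialyltransferase St6galnac3 (2.93), each as a log2 fold. Each rested on 53 to 1470 UMIs in the members. All 20 lay above the other fibroblasts in every library, as the rule for naming them required.

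**Figure D3:**
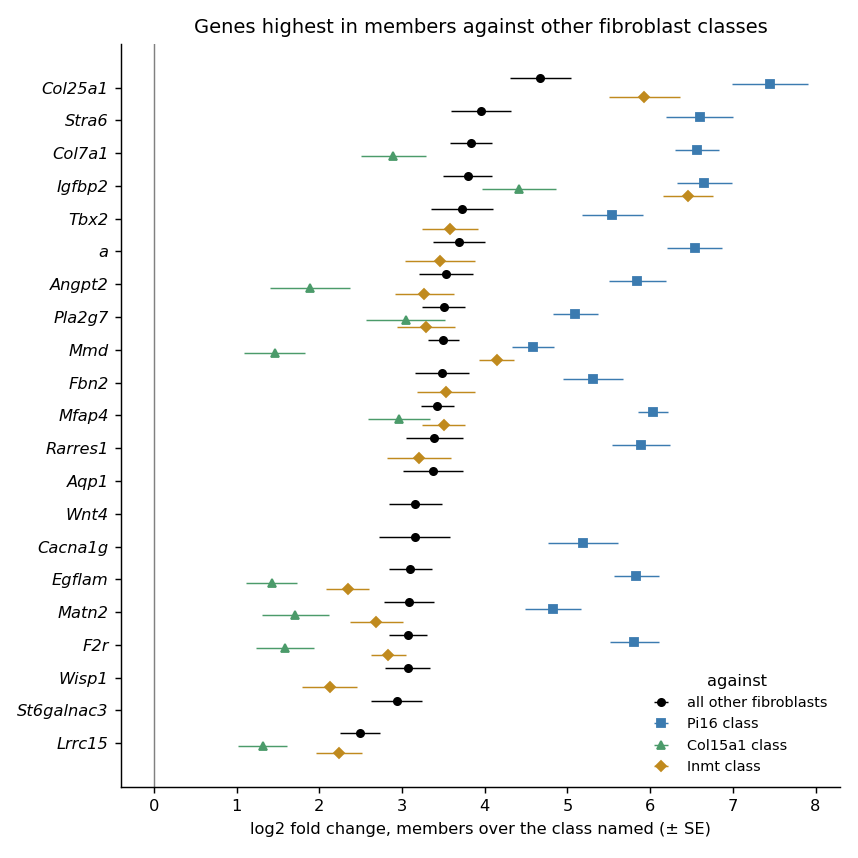
Log2 fold change (points, with SE bars) of members over all other fibroblasts and over each mirrored class for the 20 genes with the largest folds and Lrrc15. Every fold drawn lies above 0, from 1.31 for Lrrc15 against the Col15a1 class to 7.45 for Col25a1 against the Pi16 class; a missing symbol means that too few UMIs were present for the test.

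The 8 genes with the smallest folds had 0 UMIs in all 176 members, which allows up to 2.87 CPM. Ecscr, an endothelial and progenitor surface gene, stood at 48.5 CPM in other fibroblasts and was at least 16.9-fold lower in members. The hyaluronan synthase Has2, at 29.7 CPM elsewhere, was at least 10.4-fold lower, and the lubricin gene Prg4, at 24.0 CPM, at least 8.34-fold lower. Krtdap was at least 11.7-fold lower, the chemerin receptor Gpr1 at least 10.1-fold, Limch1 at least 9.84-fold, the atypical chemokine receptor Ackr1 at least 7.80-fold and the transcription factor Irf4 at least 7.14-fold.

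Most of the tested collagen chains were higher. Of 20 collagen chains outside the rule 13 were higher and 1, Col6a6, lower, with a median log2 fold of 1.08, and the higher chains ran from the basement membrane pair Col4a1 and Col4a2 to the fibril-associated Col12a1 and Col16a1. Among 16 matricellular genes Wisp1, Postn and Sparc were higher and 5 lower. Postn, periostin, stood at 1183, 4456, 7330, 8161 and 3840 CPM in members and at 654, 1231, 1030, 1940 and 719 CPM elsewhere (log2 fold 1.89, SE 0.17). Postn in the OVX members was below that of the other fibroblasts of OVX_E2 and OVX_E2_P4.

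Elastic fibre genes were divided. Of 20 tested 7 were higher and 7 lower, with a median of 0.12. Elastin itself, Eln, was higher (1.79) at 128, 726, 912, 1655 and 659 CPM in members against 143, 181, 190, 295 and 148 CPM, and in OVX it lay below the other fibroblasts. Fbn2, Mfap4, Emilin1, Lox, Mfap2 and Ltbp3 were the others that were higher. Fbn1, the main fibrillin of adult tissue, was lower (−1.07), with Mfap5 (−0.52), Fbln1, Fbln5, Efemp1, Emilin2 and Ltbp1.

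Of 22 proteoglycan genes 8 were higher and 6 lower, with a median of −0.17. Bgn, biglycan, was higher (1.97) at 1623, 802, 1003, 1319 and 789 CPM against 159 to 393 CPM, and the heparan sulphate carrier Sdc1 was higher (2.58). Has1, a second hyaluronan synthase, was lower (−3.06). Of 27 proteases and inhibitors 10 were higher, among them the stromelysins Mmp11 (2.02) and Mmp3 (1.23), and 9 lower, with a median of −0.04, near that of all genes.

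Surface markers of the adventitial progenitor state were lower while platelet-derived growth factor receptors were higher. Of 22 genes of the surface list 7 were higher and 11 lower, with a median of −0.52. Dpp4 was lower (−4.26), at 0, 5.86, 26.6, 0 and 17.3 CPM in members and 183 to 262 CPM elsewhere. Ly6a, the antigen Sca-1, was lower (−3.04) and stood at 983 CPM in OVX and between 171 and 442 CPM in the other 4. Cd34 was lower (−1.78), while Pdgfra (0.77), Pdgfrb (1.66) and the cadherin Cdh11 (2.40) were higher. The rule asked for little Pi16, and these progenitor genes travel with Pi16 in fibroblasts, so their lower level is not independent of it.

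Immune signals were mostly lower. Of 16 chemokines and cytokines 10 were lower and 1, Il34, higher (1.73), with a median of −1.86. Ccl2, the monocyte chemoattractant, stood at 88.0, 234, 93.0, 49.7 and 139 CPM in members and at 1464 to 2706 CPM elsewhere (−4.19, SE 0.22), and Ccl7 was lower (−5.24). Of 11 complement genes 8 were lower and 1, the membrane inhibitor Cd59a, higher (2.63), with a median of −1.27. C3 stood at 360, 82.0, 75.3, 44.1 and 251 CPM against 1262 to 1691 CPM (−3.55), and Serping1, the C1 inhibitor, was lower (−1.74).

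**Figure D4:**
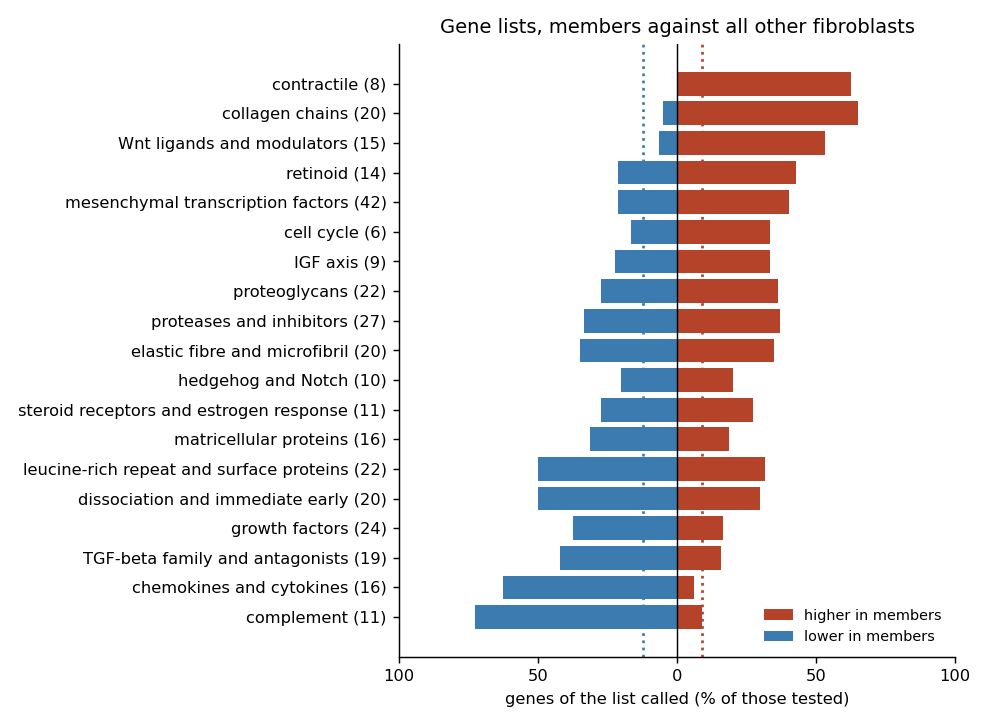
Percentage of the tested genes of each list (number in brackets) called higher (red, to the right) or lower (blue, to the left) in members against all other fibroblasts. Dotted lines give the background over all 8493 genes, 8.91% higher and 12.3% lower; collagen chains reach 13 of 20 higher, and complement 8 of 11 lower.

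Developmental regulators leaned the other way. Of 42 mesenchymal transcription factors 17 were higher and 9 lower, with a median of 0.37. The nuclear receptor Nr2f2 was higher (2.39) at 77.3 to 184 CPM against 11.5 to 26.3 CPM, as were Runx2, Gli2, Snai1, Snai2, Twist1, Twist2 and Msx1. Ebf1, Ebf2, Ebf3, Klf4 and Prrx1 were among the lower. Of 15 Wnt ligands and modulators 8 were higher, including Wnt4, Wnt5a, Rspo1 and the inhibitor Sfrp1 (2.30), and 1, Sfrp4, was lower (−4.13), with a median of 0.51.

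Of 24 growth factors 4 were higher, Mdk, Vegfc, Igf1 (1.34) and Angptl4, and 9 lower, with a median of −0.64. Of 9 genes of the insulin-like growth factor axis 3 were higher, Igfbp2, Igf1 and Igfbp7, and 2 lower, Igfbp5 (−3.98) and Igfbp6 (−1.16), with a median of −0.28. Of 8 contractile genes 5 were higher and 0 lower, with a median of 0.94; Tagln was higher (1.81), whereas Acta2, smooth muscle actin, did not pass (1.10, adjusted p = 0.0997). Acta2 was uneven, at 272, 82.0, 6.64, 16.6 and 78.0 CPM in members. Mylk, of the basal marker list, was also higher (2.53). The basal markers together lay above the other fibroblasts in all 5 libraries, in OVX through 1 member. The part of basal transcripts in the contractile genes was not tested.

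Of the hormone receptors, Esr1 was lower in the members, whereas the prolactin receptor Prlr did not pass (log2 fold −0.22, adjusted p = 0.586). Esr1, estrogen receptor α, gave 18 UMIs in all, at 7.995, 17.6, 13.3, 16.6 and 43.3 CPM, against 48.6, 50.5, 38.7, 49.9 and 53.8 CPM in other fibroblasts. Members were below the others in all 5 libraries (log2 fold −1.53, SE 0.32). Thinned to 3000 UMIs it was seen in 3.57, 8.33, 1.47, 3.33 and 3.85% of members and 10.3 to 14.2% of other fibroblasts. In endothelial-type barcodes the shares were 3.45, 0, 1.59, 3.85 and 1.92%, so that outside OVX_E2 its thinned detection in members was near background. Before thinning it was seen in 1 of 28, 3 of 24, 6 of 68, 3 of 30 and 4 of 26 members. The endothelial-type barcodes gave 4 of 29, 0 of 42, 3 of 63, 3 of 26 and 2 of 52. Pgr, the progesterone receptor, gave 4 UMIs (−1.33, adjusted p = 0.197), and the estrogen target Greb1 gave 1 UMI and was not tested. Of the 11 tested genes of the steroid and estrogen response list 3 were higher, Ramp3, Igf1 and Tgm2, and 3 lower, Esr1 and Ghr among them, with a median of −0.15.

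Members were also compared with each mirrored class. Against the Pi16 class 967 of 7019 genes (13.8%) were higher and 1112 (15.8%) lower. Against the Inmt class 430 of 3558 (12.1%) were higher and 570 (16.0%) lower. Against the Col15a1 class, which had 258 cells and the fewest genes tested, 107 of 2192 (4.88%) were higher and 166 (7.57%) lower, and 49 and 97 when library was left out as a block. Without OVX_E2_PBDE the counts higher and lower were 588 and 796 against the Pi16 class, 232 and 308 against the Inmt class, and 53 and 99 against the Col15a1 class. Collagen chains were higher for 15 of 17 tested against the Pi16 class, 10 of 14 against the Inmt class and 4 of 15, with 4 lower, against the Col15a1 class. Complement genes were lower for 8 of 11 against the Pi16 class and 7 of 10 against the Inmt class, and against the Col15a1 class 0 of 6 passed in either direction. Contractile genes were higher for 6 of 8 against the Pi16 class and 4 of 6 against the Inmt class. Against the Col15a1 class 0 of 5 contractile genes were higher and 1, Myl9, was lower. Of mesenchymal transcription factors 15 of 37 were higher and 9 lower against the Pi16 class. Against the Inmt class 9 of 24 were higher and 6 lower, and against the Col15a1 class 2 of 17 were higher and 2 lower.

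Mfap4 was higher than in the Pi16 class by 6.04, than in the Inmt class by 3.50 and than in the Col15a1 class by 2.96 on the log2 scale. Lrrc15 was higher by 2.23 against the Inmt class and by 1.31 against the Col15a1 class. Postn was higher by 2.97, 1.49 and 1.02 against the Pi16, Inmt and Col15a1 classes. In these 3 genes the fold was smallest against the Col15a1 class. Igfbp2 was higher by 6.65 against the Pi16 class, 6.46 against the Inmt class and 4.41 against the Col15a1 class.

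Treatments were compared within members as ratios of CPM between 2 libraries, with exact binomial 95% intervals for counting error, over genes with at least 50 UMIs in both libraries together. A gene counted as changed in size when it differed at least 2-fold, which is a description of 1 library against 1 and no test. The comparisons with OVX_E2 share that library's members, so they are set side by side and not compared with one another. In droplet data fewer transcripts per cell and a shift in the mixture of cells within the class cannot be told apart.

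After estradiol alone the members carried more collagen, periostin and elastin and less complement than in OVX. Of 796 genes 73 (9.17%) were at least 2-fold higher and 74 (9.30%) lower in OVX_E2. In the other fibroblasts of the same libraries 12 and 4 of these 796 genes were. The pools of other fibroblasts were far deeper, so that counting error alone carried fewer of their genes past 2-fold, and the counts of the 2 pools, here and in the comparisons that follow, are not like measures. Of 9 measured collagen chains 6 were higher and 0 lower, with a median log2 ratio of 1.67, against 0.13 over all genes and −0.04 for these chains in the other fibroblasts. Col5a1, which nucleates collagen fibrils, gave 108 against 15 UMIs, a ratio of 5.27 (3.06 to 9.75), and 1.10 in other fibroblasts. Col5a2 gave 256 against 42 UMIs, a ratio of 4.46 (3.21 to 6.34) and 1.20 in other fibroblasts.

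Other matrix genes went both ways. Postn was higher by a ratio of 3.77 (3.15 to 4.52; 1.88 in other fibroblasts), Sparc by 2.68 (2.41 to 2.98; 1.19) and fibronectin, Fn1, by 3.25 (2.54 to 4.18; 0.942). Eln was higher by 5.68 (3.36 to 10.2; 1.26), with Loxl1, Mfap2 and Fbn1 also past 2-fold and the crosslinking enzyme Lox (0.220) and Fbln1 (0.312) below. In each of these the ratio lay further from 1 in members than in other fibroblasts, with intervals that overlapped only for Mfap2, at 2.91 (1.96 to 4.43) and 2.14 (2.03 to 2.27). Of 7 measured proteoglycans 1, Sdc1, was past 2-fold higher and 3, Srpx, Bgn and Gpc6, lower, with a median log2 ratio of −0.27 and 0.12 in other fibroblasts.

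All 5 measured complement genes were at least 2-fold lower, with a median log2 ratio of −1.95 and −0.38 in other fibroblasts. C3 gave 14 against 45 UMIs, a ratio of 0.228 (0.116 to 0.423; 0.766 in other fibroblasts), and Serping1 85 against 241, a ratio of 0.258 (0.199 to 0.332; 0.668). The chemokine Cxcl12 was at 0.277 (0.187 to 0.405; 0.826), whereas Ccl2 was at 2.66 (1.34 to 5.76; 0.976). Of 15 proteases and inhibitors 2, Timp1 among them, were higher and 5 lower, Mmp3 among them at 0.384 (0.308 to 0.476; 1.41).

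Among the largest single ratios were those of Cotl1, an actin-binding protein, at 15.6 (5.11 to 77.8; 1.60 in other fibroblasts), the DNA repair gene Ercc1 at 10.6 (4.32 to 33.5; 1.74) and Mmd at 6.96 (3.36 to 16.7; 3.31). In OVX these rested on 3, 5 and 8 UMIs. Igfbp3 was the lowest with a spread over cells, 1 against 86 UMIs and a ratio of 0.00852 (0.00021 to 0.0487; 0.202 in other fibroblasts), and 13 of 28 OVX members carried it. Cd74 (4 against 216 UMIs), H2-Aa (1 against 84) and Cxcl2 (0 against 66) were also among the 4 lowest, and 1 OVX member, which held 3 Spon1 UMIs and no Crabp1 or Mfap4, carried 210, 81 and 63 of the OVX UMIs. Without barcodes rich in another cell type's markers their log2 ratios were −0.85, −1.18 and −2.59.

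Mfap4, Igfbp2 and Lrrc15 were higher in OVX_E2 in members and in other fibroblasts. Mfap4 differed by a ratio of 1.78 in members (1.40 to 2.26) and 7.90 in other fibroblasts, and Igfbp2 by 1.55 in members (1.03 to 2.37) and 16.8 in others. Spon1 was at 0.488 in members (0.398 to 0.597) and 3.00 in others, and the rule used Spon1, within a sum, to choose members. Lrrc15 gave 24 UMIs against 0 and was at least 5.86-fold higher in members, and 21.9-fold higher in other fibroblasts.

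**Figure D5:**
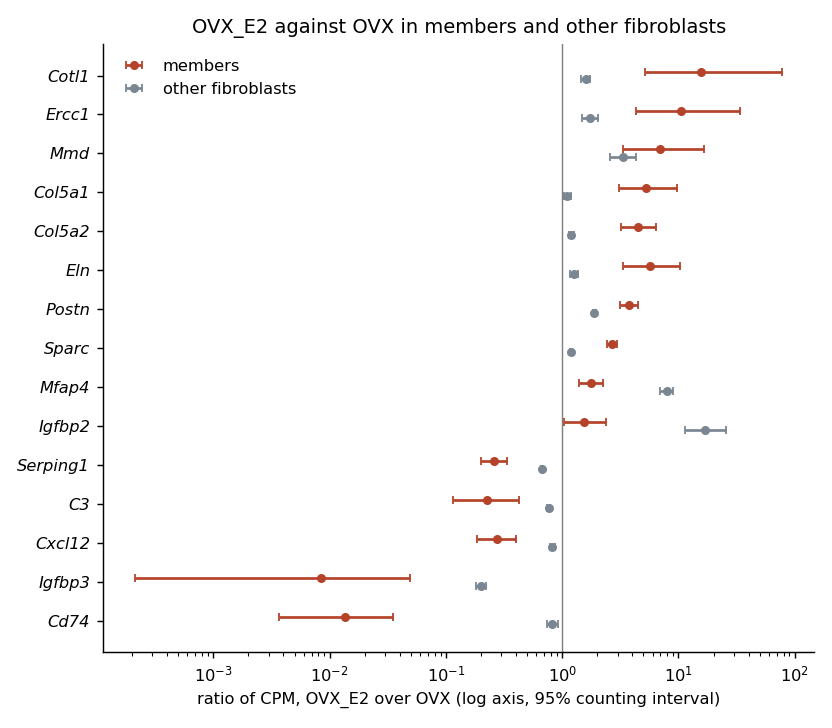
Ratio of CPM in OVX_E2 over OVX (log axis, 95% counting intervals) in members (red) and other fibroblasts (grey) for 15 genes of the lists and the naming rule. Collagen and elastin genes lie to the right of 1 in members and close to 1 in the other fibroblasts, Mfap4 and Igfbp2 lie further right in the others, and 210 of the 216 OVX UMIs of Cd74 came from 1 member.

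With PBDE added to estradiol few genes of the members moved past 2-fold. Of 1515 genes 31 (2.05%) were higher and 43 (2.84%) lower in OVX_E2_PBDE than in OVX_E2, and 3 and 2 of these 1515 genes were in other fibroblasts. Scaling by trimmed means in place of total UMIs shifted log2 ratios by 0.20 and gave 57 higher and 23 lower, so the side that most genes took depended on the scaling. Penk, the enkephalin precursor, gave 161 against 16 UMIs, a ratio of 3.81 (2.27 to 6.82), and 0.848 in other fibroblasts. Lars2, a mitochondrial leucyl-tRNA synthetase, was at 3.48 (1.39 to 11.2; 0.766) and 5.29 without the top member of each library, Rps27rt, a near copy of another ribosomal gene and so uncertain, at 3.11 (1.92 to 5.30; 2.57), and Apod, a lipocalin, at 2.72 (1.86 to 4.10; 1.04).

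At the low end stood Fabp4, a fatty acid carrier of fat and vessels, at 0.084 (0.0435 to 0.152; 0.744 in other fibroblasts), with 36 of the 63 OVX_E2 UMIs in 1 member and 0.123 without the top member of each library. The transcript 2700094K13Rik was at 0.210 (0.115 to 0.373), Ttyh2 at 0.272 (0.152 to 0.479; 0.485 in other fibroblasts) and Myc at 0.274 (0.149 to 0.497; 0.877). Postn was at 1.65 (1.52 to 1.78) in members and 0.836 in others. Mfap4 was at 1.07, Lrrc15 at 0.977 and Crabp1 at 1.02, each with an interval that included 1, while Spon1 was at 2.01 and Tnc at 0.497. Of the 15 measured collagen chains 1, Col12a1, was past 2-fold higher and 0 lower.

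With progesterone added to estradiol 14 of 901 genes (1.55%) were higher and 30 (3.33%) lower in the members, or 15 and 20 under trimmed-mean scaling. In other fibroblasts 6 of these 901 genes were higher and 0 lower. Penk was highest at 4.24 (2.44 to 7.81; 0.907 in other fibroblasts), followed by the pseudogene Rpl23a-ps3 at 3.19 (1.69 to 6.45; 1.95), the calmodulin-binding Nrgn at 3.16 (1.71 to 6.22; 2.50) and the TGF-β target Pmepa1 at 2.83 (1.55 to 5.46; 1.19). With Crabp1 left out of the sum Nrgn turned, to a log2 ratio of −2.91 against 1.59 as reported, both with 1 UMI added. Among the lowest were the helix-loop-helix inhibitor Id2 at 0.207 (0.0884 to 0.432; 0.989), the antioxidant Gpx3 at 0.233 and Ercc1 at 0.288 (0.170 to 0.470; 1.08). Across the 5 libraries Penk stood in members at 1687, 93.7, 357, 397 and 321 CPM, lowest in OVX_E2. Ercc1 stood at 39.98, 422, 124, 121 and 95.4 CPM, highest in OVX_E2. Each comparison that used OVX_E2, that with OVX included, therefore moved these genes. For Gpx3, 89 of 182 OVX_E2 UMIs lay in 1 member, and the ratio was 0.353 without the top member of each library.

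Among matrix genes Eln was past 2-fold, at 2.28 (1.84 to 2.83; 1.63 in other fibroblasts), and of 12 collagen chains none was. Cyr61, a matricellular protein, was at 0.362 (0.205 to 0.618; 0.705 in other fibroblasts) and the proteoglycan Ogn at 0.471 (0.279 to 0.776; 0.811). Tnc was at 0.240 (0.120 to 0.448) and Crabp1 at 2.32 in members, as a description of genes of the rule. Mfap4 was at 1.24 and Lrrc15 at 1.14. Wnt4, whose epithelial form answers to progesterone, stood at 46.9 CPM in OVX_E2 and 66.2 CPM in OVX_E2_P4 on 8 and 12 UMIs, a difference not detectable at this depth.

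With PBDE added to estradiol and progesterone 11 of 748 genes (1.47%) were higher and 10 (1.34%) lower in members, against 1 and 22 of these genes in other fibroblasts. Higher were Gpx3 at 3.18 (2.20 to 4.65; 1.19 in other fibroblasts), Ly6e at 2.73 (1.51 to 5.08; 1.24), Ly6a at 2.58 (1.62 to 4.18; 1.28) and Apod at 2.50 (1.51 to 4.21; 1.03). With 3 times each other sum the log2 ratio of Ly6a, with 1 UMI added, was −0.025 against 1.35 as reported. Lowest was Mmp11, with 2 against 60 UMIs, a ratio of 0.0524 (0.0062 to 0.198; 0.350) and 0.0325 without the top member of each library, followed by Olfml3 at 0.382 (0.239 to 0.590; 0.608), Pmepa1 at 0.384 (0.179 to 0.754; 1.08) and Eln at 0.398 (0.305 to 0.513; 0.503).

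Postn, Mfap4 and Igfbp2 were lower here in members and in other fibroblasts. Postn was at 0.471 (0.422 to 0.524) in members and 0.370 in others, Mfap4 at 0.525 and 0.438, and Igfbp2 at 0.597 and 0.358. Lrrc15 was at 0.542 in members, with an interval of 0.236 to 1.14 that included 1, and at 0.234 in others. The 11 measured collagen chains had a median log2 ratio of −0.24 in members and −0.92 in others, and none passed 2-fold in members. Of 7 proteoglycans 0 passed 2-fold in members, with a median of 0.10 and −0.57 in others. Spon1 was at 0.844 and Crabp1 at 0.637 in members.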

How the data were processed

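Mammary gland suspensions of 5 groups, 1 library each, were sequenced on the 10x Genomics 3' version 2 chemistry. The authors deposited raw UMI counts per gene and cell barcode for each library, made with Cell Ranger 2.0.0 on mm10 per the submitters' processing notes, over 27998 genes. The members and the gene lists were chosen with earlier results of these data known.

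Counts of each library were summed over the members and over the other classes. Classes were compared with edgeR 4.0.16 (R 4.3.3; trimmed-mean factors, default filter on low counts, quasi-likelihood test, library as a block, Benjamini-Hochberg adjustment over all genes tested, adjusted p under 0.05), after the procedure was tested on simulated data. The simulation changed 200 genes, and over the class contrasts 85.0 to 100% of those tested were recovered, with 3.0 to 5.4% of calls false. It did not choose cells by their own counts, so it does not cover selection by the rule. DESeq2 1.42.0, other factors, no filter, each library left out and changes to the membership rule served as alternatives. The SE given with a log2 fold was worked back from the test, as the size of the fold divided by the square root of its F statistic. The genes of the rule were left out of the counts of calls. The 2 sums of a library come from the same gland suspension, which is where the pairing in the block comes from.

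Levels are CPM of summed UMIs with exact Poisson intervals, and ratios carry exact conditional binomial intervals, at 95%. Genes named are Mfap4, Lrrc15, the 20 highest and 8 lowest by fold among those past the threshold with 1 direction in 5 libraries and at least 50 UMIs, the 4 highest and 4 lowest ratios of each treatment comparison (1 UMI added), and members of the lists. Genes named in the text outside these rules were chosen after their values were seen. Some genes that these rules name are not reported here. Neighbours were found in 15 principal components of the 2000 most variable genes outside the rule. No doublet caller was run; barcodes over 2 times the median UMIs, or with 10 or more UMIs of another cell type's markers, were left out as alternatives. Endothelial-type barcodes held at least 10 UMIs of the endothelial list. Positions follow GENCODE M21. Python tools were numpy 2.4.6, scipy 1.17.1, pandas 2.3.3, scikit-learn 1.9.0 and matplotlib 3.10.9.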

Additional observations from a re-analysis of the deposited data

How the results depend on the processing

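Library served as a block in each class contrast, since the 2 sums of a library were paired. Without the replicate block the Col15a1 contrast gave 49 genes higher and 97 lower in place of 107 and 166, and the other 6 counts stayed within 1.5 times. The lowest and highest counts with 1 library left out were 432 and 823 genes higher and 709 and 1140 lower against all other fibroblasts, 588 and 1042 higher and 796 and 1325 lower against the Pi16 class, 53 and 138 higher and 99 and 183 lower against the Col15a1 class, and 232 and 462 higher and 308 and 620 lower against the Inmt class. The low ends were those without OVX_E2_PBDE, which gave the most members, and the high ends those without OVX. Against the Col15a1 class 71 genes were higher without OVX_E2_P4. Without a filter on low counts 1569, 1974 and 901 genes were lower than in all other fibroblasts, the Pi16 class and the Inmt class, and 199 were higher than in the Col15a1 class. With 3 times each other sum 461 genes were higher than in other fibroblasts, and with Spon1 left out of the sum 252.

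In group order, the share of fibroblasts was 0.731, 1.502, 2.17, 2.71 and 1.504% with 3 times each other sum and 0.447, 1.00, 0.780, 1.26 and 0.602% without Spon1 in the sum. The share of all barcodes was 0.579, 0.537, 1.10, 0.483 and 0.424% with 3 times and 0.354, 0.358, 0.396, 0.225 and 0.170% without Spon1. Without Crabp1 in the sum, OVX_E2_P4 had 3.07% of fibroblasts and 0.547% of barcodes, and OVX_E2_P4_PBDE 2.26% and 0.636%. With the rule applied after thinning, OVX_E2_P4_PBDE had 2.56% and 0.721%. OVX kept the lowest share of fibroblasts under each of these settings. With 50 neighbours, members made 22.8% of the neighbours of OVX_E2_P4_PBDE members.

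The percentage of genes past 2-fold between libraries moved with the membership rule. For OVX_E2 against OVX it was 14.2% higher and 14.6% lower without Spon1. For OVX_E2_PBDE against OVX_E2 the higher share was 4.37% with 3 times, 8.81% without Spon1 and 3.76% under trimmed-mean factors, and the lower share 5.94%, 5.51% and 1.52%, with 1.88% after thinning and 4.47% without Crabp1. For OVX_E2_P4 against OVX_E2 the higher share was 3.39% with 3 times and 4.80% without Spon1, and the lower share 6.03%, 5.93%, 5.23% without barcodes over 2 times the median UMIs and 8.76% without Crabp1. For OVX_E2_P4_PBDE against OVX_E2_P4 the higher share was 2.28% without barcodes over 2 times the median UMIs and 2.98% without Crabp1, and the lower share 2.18% after thinning, 3.02% with 3 times, 8.71% without Spon1 and 2.23% without Crabp1. The cause was not tested.

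Of 720 log2 ratios of named genes recomputed, 605 moved by less than the counting interval, 111 moved further and 4 turned direction. OVX_E2 against OVX, Cd74 was 0.015 without Spon1 in the sum (−5.89 as reported, with 1 UMI added) and H2-Aa 0.017 after thinning (−5.86). Nrgn in OVX_E2_P4 against OVX_E2 was −2.91 without Crabp1 (1.59), and Ly6a in OVX_E2_P4_PBDE against OVX_E2_P4 was −0.025 with 3 times each other sum (1.35). The setting without barcodes of another cell type's markers, trimmed-mean factors for the percentages, the percentages under each membership rule and the ratios without the top member were chosen after seeing the data.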

Other observations

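Gene groups outside the matrix and immune lists were also read in the members against all other fibroblasts. Of 19 genes of the TGF-β family and its antagonists 3 were higher, Fstl3, Gdf11 and Nbl1, and 8 lower, among them the BMP antagonist Chrdl1 (log2 fold −5.14), the ligand Tgfb2 (−4.85) and the activin-binding Fst (−2.72), with a median of −0.43. Of 10 hedgehog and Notch genes Gli2 and Gas1 were higher and Hes1 and Cdon lower, with a median of 0.46. Of 6 cell cycle genes Cdkn1c and Ccnd2 were higher and Cdkn1a lower, with a median of −0.28. Of other cell types' markers tested, 0 of 11 luminal genes were higher and 2 lower, Mylk of 3 basal genes was higher, Kcnj8 of 2 pericyte genes and Krt19, the 1 mesothelial gene tested, were lower, Kera, the 1 tendon gene tested, was higher, and no endothelial, Schwann, myeloid or lymphoid gene passed the test (1, 2, 2 and 1 tested).

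Genes that answer to tissue dissociation stood in both directions. Of 20 such genes 6 were higher in members, the heat shock genes Hspa1a and Hspa1b and the immediate early genes Fos, Jun, Ier2 and Ier3, and 10 were lower, with a median of −0.40. Fos was at 6644, 2746, 2082, 1418 and 1664 CPM in members and 2420, 2044, 1245, 1367 and 1503 CPM in other fibroblasts. Hspa1a was at 1239, 205, 425, 182 and 234 CPM in members and 314, 141, 124, 149 and 99.1 CPM in others. OVX was highest for both genes, in members and in other fibroblasts, and of 17 such genes measured between OVX_E2 and OVX in members 6 were at least 2-fold lower and 1, Nr4a1, higher, with a median log2 ratio of −0.83 in members and −0.45 in others. In OVX_E2_P4 against OVX_E2, 4 of 16 were lower in members, Socs3, Jun, Dusp1 and Fosb, and 0 higher. The median log2 ratio there was −0.77 in members and −0.23 in others. In OVX_E2_PBDE against OVX_E2, 2 of 19 were higher and 2 lower. In OVX_E2_P4_PBDE against OVX_E2_P4, 0 of 16 passed 2-fold in either direction. The part of dissociation in the differences between libraries was not tested.

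The OVX members also held more of 2 secreted gene products than the members of any treated library. Apod stood at 3086 CPM in OVX and at 182, 494, 149 and 373 CPM in the other 4, against 394, 212, 221, 199.8 and 206 CPM in other fibroblasts. Igfbp3 stood at 688 CPM in OVX and at 5.86, 15.5, 0 and 17.3 CPM in the other 4, against 350.0, 70.6, 50.6, 66.7 and 52.1 CPM in other fibroblasts.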
